A study of Mus musculus with 12 samples.

Results

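The genes described here are 31 B-lineage genes that encode immunoglobulin chains, the B-cell receptor complex and its co-receptors, signalling adaptors, transcription factors and the recombination machinery. They were read in a population that was sorted as monocytes, and they were chosen by name: every row of the count tables whose symbol is one of the 31, out of 54532 genes. A count in enough libraries to be tested was reached by 27 of them, and the other 4 (Cr2, Igll1, Rag2 and Vpreb1) are given as levels. The cells were mouse bone marrow monocytes, sorted as positive for the integrin CD11b and high for the surface protein Ly6C. They fell into 4 groups of 3 libraries. The first came from mice given 300 mM succinate for 7 days, with the cells cultured for 4 h with lipopolysaccharide (LPS), the Toll-like receptor 4 ligand of bacteria. The second came from control mice without succinate, with the same 4 h of LPS. The third and the fourth held unstimulated cells of succinate mice and of control mice. The labels name no mutation, strain, age, sex or LPS dose. Nor do they state that the 3 libraries of 1 group stem from different animals. The p-values therefore reflect the spread among these libraries, which may be technical.

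B cells are made in the same marrow as monocytes. A precursor first becomes committed through the factors Ebf1 and Pax5. With the Rag recombinase it cuts and joins the variable segments of its heavy chain genes. It tests the new heavy chain beside a surrogate light chain and then joins the segments of its light chain genes. Finally it carries IgM on its surface together with the signalling pair Cd79a and Cd79b. Plasma cells, the end stage, secrete IgM or, after class switching, IgA, IgG or IgE, and drop much of the B-cell programme. Several genes of this group also have lives outside B cells: Spib and Ly6d are made by plasmacytoid dendritic cells, and Bach2 is a repressor that myeloid and T cells use as well.

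Levels are given as CPM (the count scaled to a common library total, after trimmed-mean normalisation), and as CPM per kb of exon where genes are set against each other. Changes are log2 fold changes ± SE. A gene was called where the quasi-likelihood test of edgeR gave a Benjamini-Hochberg adjusted p below 0.05 over 14324 genes. Library totals ran from 15975882 to 18306747 counts. At that depth 3 counts, the most that a count of 0 allows, correspond to 0.157 to 0.195 CPM per library. This floor and the spread between libraries limit the low members. The 12 markers of Ly6C-high monocytes summed to 4340 to 6390 CPM in LPS libraries and 6370 to 9990 CPM in unstimulated ones. The 15 markers of neutrophils summed to 17700 to 23400 CPM with LPS and 9900 to 16800 CPM without. They did not move together: 6 were called higher and 2 lower with LPS in each kind of mouse. Of all genes 14.1% and 16.2% were in succinate mice, and 15.3% and 14.8% in control mice. Lcn2 rose in both (1.59 in succinate and 1.64 in control mice), while Mmp8 (-1.31 and -1.43) and Cxcr2 (-1.04 and -1.35) fell. None of the 27 monocyte and neutrophil markers was at 0 in all libraries, and the part of such cells in the LPS values below was not tested. The 31 B-lineage genes together made up 166 to 356 CPM. Libraries also fell into 2 classes by the level of 5 genes outside this group: 5 libraries (replicate 3 of the control LPS group and replicates 2 and 3 of both unstimulated groups) stood apart from the other 7. Calls of members that change with that class are given both ways. In such bulk RNA, fewer cells of a type and less RNA per cell cannot be told apart.

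Promoters are shown for 4 of the members that changed with LPS in at least 1 kind of mouse and have an entry in the RefSeq promoter table, to show which short B-cell motifs lie around their starts. They are the 250 bases before the RefSeq start on GRCm38.p6, on the strand of the gene: chr4:32417185-32417434 (+) for Bach2, chr7:44532072-44532321 (−) for Spib, chr19:40994222-40994471 (−) for Blnk and chr4:43454627-43454876 (−) for Cd72. The Bach2 and Blnk windows lie inside their GENCODE genes, which begin upstream of these RefSeq starts. Capitals mark matches on either strand to an EBF motif (CCCNNGGG), the octamer (ATGCAAAT) or an Ets core with its flank (GGAAGT).
Bach2 promoter: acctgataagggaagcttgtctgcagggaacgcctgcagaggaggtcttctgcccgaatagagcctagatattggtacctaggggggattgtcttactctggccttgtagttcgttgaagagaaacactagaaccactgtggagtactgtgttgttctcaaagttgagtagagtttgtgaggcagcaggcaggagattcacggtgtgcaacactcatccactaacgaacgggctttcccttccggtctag
Spib promoter: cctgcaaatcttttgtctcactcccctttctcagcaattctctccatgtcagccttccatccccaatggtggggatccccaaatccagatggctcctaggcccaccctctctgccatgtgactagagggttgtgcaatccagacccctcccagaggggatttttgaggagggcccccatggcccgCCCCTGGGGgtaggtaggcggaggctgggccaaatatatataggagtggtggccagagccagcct
Blnk promoter: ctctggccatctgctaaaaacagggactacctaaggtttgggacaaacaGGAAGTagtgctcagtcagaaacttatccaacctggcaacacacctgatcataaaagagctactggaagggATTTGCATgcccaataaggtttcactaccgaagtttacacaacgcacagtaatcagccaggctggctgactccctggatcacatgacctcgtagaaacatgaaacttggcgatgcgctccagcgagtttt
Cd72 promoter: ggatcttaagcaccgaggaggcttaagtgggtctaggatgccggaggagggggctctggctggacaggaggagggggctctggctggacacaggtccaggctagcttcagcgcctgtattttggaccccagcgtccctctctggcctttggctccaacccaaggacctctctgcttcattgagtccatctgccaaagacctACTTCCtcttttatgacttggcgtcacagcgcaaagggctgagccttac
The Spib window holds 2 overlapping EBF matches, 65 and 64 bases before the start. The Blnk window holds an Ets match at 201 and an octamer at 130 bases before the start, and the Cd72 window an Ets match at 49 bases. None of these 3 motifs matched in the Bach2 window. The 22 members with a promoter entry have 26 promoters. Of these 26 the EBF motif was in 4 (11.8% of the 32851 promoters in the table), the octamer in 2 (1.6%) and the Ets core in 9 (19.7%). The kappaB consensus was in 0 of the 26, against 0.98% of all promoters. These matches describe letters only.

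The most abundant B-lineage transcripts per length were the constant parts of antibodies. Igkc, the kappa light chain constant gene (chr6:70726435-70726966, 1 exon), averaged 112 CPM per kb over the 12 libraries. Ighm, the constant gene of IgM (chr12:113418558-113422730), averaged 65.7 CPM per kb. The next genes were far lower: the lambda constant gene Iglc1 at 5.56, the receptor subunits Cd79b at 4.88 and Cd79a at 3.05, the surface protein Ly6d at 2.39 and the Ets factor Spib at 2.25 CPM per kb. Bach2 stood at 1.54, Ighd (the IgD constant gene) at 1.26 and the octamer co-activator Pou2af1 at 1.16 CPM per kb. Every other member but Iglc2 (1.01) was below 1 CPM per kb on this scale. The lowest were Rag2, the partner of Rag1 in the recombinase, at 0.0484, and the complement receptor gene Cr2 at 0.0358. Summed over the other 26 members, without the 5 immunoglobulin chains, the level was 51.2 to 87.2 CPM per library.

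**Figure D1:**
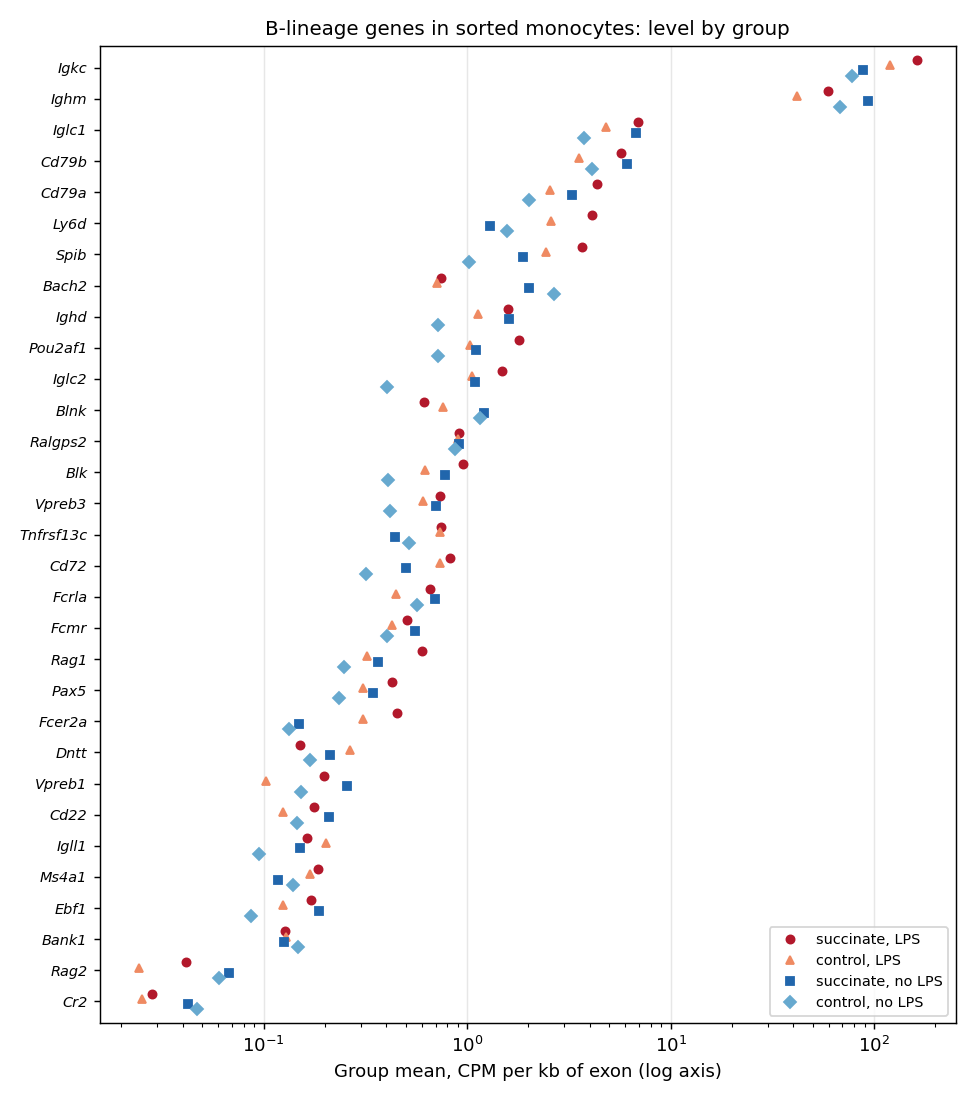
Level of the 31 B-lineage genes by group: each point is a group mean of 3 libraries in CPM per kb of exon on a log axis, with genes ordered by their mean over all libraries. Igkc and Ighm stand apart at the top, and Bach2 has its LPS points left of its unstimulated points while Spib has them to the right.

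LPS was compared with no stimulus within each kind of mouse. In succinate mice 5 of the 27 tested members were called, where 30.2% of all 14324 tested genes were called: Ly6d and Spib were higher (14.1% of all genes), and Bach2, Blnk and Ighm were lower (16.2%). In control mice 4 were called, against 30.1% of all genes: Spib and Cd72 were higher (15.3%), and Bach2 and Ighm were lower (14.8%). Averaged over both kinds of mice 8 were called, against 44.1% of all genes: Spib, Ly6d, Cd72, Igkc and Pou2af1 were higher (21.2%) and Bach2, Blnk and Ighm were lower (22.9%). In this fit the share of members called was below the share of all genes in each comparison. Without the low-count filter 7 of 31 members were called in succinate mice, where 15.7% of all 28563 genes were. In control mice it was 5 of 31, beside 15.6%, and on average 9 of 31, beside 22.9%. The median log2 fold change of the 27 was 0.07 in succinate mice and 0.38 in control mice, beside -0.02 and 0.0 for all tested genes. Both medians moved when a library was left out, to 0.06 to 0.24 in succinate mice (the highest without replicate 3 of the unstimulated group), and to between 0.19 (without replicate 3 of the control LPS group) and 0.68 (without replicate 2 of it) in control mice. In succinate mice the median was also 0.26 with the replicate block, 0.31 with the stricter filter, 0.34 with limma-voom, 0.39 in 1 class alone and 0.58 with the class as a covariate.

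The library class moved some of these calls. In the 7 libraries of 1 class alone, which leave each unstimulated group with 1 library that is assumed to vary like the others, 2 members were called in succinate mice (14.5% of all genes) and 3 in control mice (13.7%). Ly6d, Spib and Ighm lost the call in succinate mice at 1.91, 1.22 and -0.33, and Spib and Cd72 lost it in control mice at 1.53 and 1.56, with adjusted p from 0.0587 to 0.172. Fcer2a gained it in control mice (adjusted p = 0.014). Averaged over both kinds of mice 9 members were called in those libraries (24.3% of all genes). Ly6d (1.20), Pou2af1 (0.51) and Igkc (0.43) lost the call, with adjusted p from 0.0609 to 0.448, and Blk (1.07), Fcer2a (3.80), Iglc1 (3.59) and Iglc2 (3.76) gained it, with adjusted p from 0.00953 to 0.0493. With the class as a covariate Tnfrsf13c was called in succinate mice (1.23, adjusted p = 0.0392) and Ighm was not, where 25.5% of all genes were called. On average 11 members were called with that covariate (37.8% of all genes), the 8 above and Blk (0.91), Cd79a (0.63) and Tnfrsf13c (0.95), with adjusted p from 0.0168 to 0.0327. Over all 21 alternatives the log2 fold change was 1.46 to 1.97 for Ly6d in succinate mice, 0.70 to 1.33 and 1.04 to 1.53 for Spib in succinate and control mice, and 1.01 to 1.56 for Cd72 in control mice.

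The smallest p among the members in both kinds of mice was that of Bach2, the transcriptional repressor that keeps B cells from turning into plasma cells (chr4:32238804-32586108, + strand). It had 7.10, 6.14 and 8.92 CPM in LPS libraries of succinate mice, against 18.5, 19.6 and 22.0 CPM in their unstimulated libraries. Control mice gave 7.25, 6.48 and 7.49 CPM with LPS, against 20.5, 29.3 and 29.9 CPM without. All 6 LPS libraries lay below all 6 unstimulated ones. The log2 fold change was -1.44 ± 0.18 in succinate mice (adjusted p = 2.05e-05) and -1.91 ± 0.18 in control mice (adjusted p = 1.32e-06). Bach2 remained called in both under each of the 21 alternatives, with -1.60 to -1.25 in succinate mice and -2.06 to -1.55 in control mice. An antisense gene, Bach2os, shares 537 exonic bases with it on the other strand, and whether the counting used strand is not given in the sources used here.

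Spib, an Ets-family factor of B cells and plasmacytoid dendritic cells (chr7:44525993-44532071, − strand), went the other way. Its level was 8.20, 13.9 and 9.41 CPM in LPS libraries of succinate mice, against 4.58, 6.06 and 5.63 CPM without LPS. In control mice it was 7.49, 4.34 and 9.22 CPM with LPS, against 2.08, 3.18 and 3.55 CPM without. The groups did not overlap in either kind of mouse. The log2 fold change was 0.95 ± 0.28 in succinate mice (adjusted p = 0.0194) and 1.26 ± 0.30 in control mice (adjusted p = 0.00496). The call in succinate mice was lost without replicate 2 of the LPS group (0.70, adjusted p = 0.113) or replicate 1 of the unstimulated group (0.84, adjusted p = 0.0666). Pou2af1, which joins octamer factors on immunoglobulin promoters, had 3.87, 5.07 and 4.73 CPM with LPS against 3.52, 1.92 and 3.01 CPM without in succinate mice. Libraries of control mice had 2.50, 1.88 and 3.52 CPM of it with LPS against 1.44, 1.80 and 2.24 CPM without. It was called on average only (0.61 ± 0.21, adjusted p = 0.0303). Its groups overlapped in control mice, and leaving out any of 5 libraries (replicates 2 and 3 of the succinate LPS group, replicate 3 of the control LPS group, replicate 2 of the unstimulated succinate group or replicate 1 of the unstimulated control group) gave 0.50 to 0.59 with adjusted p from 0.0532 to 0.0724. The commitment factors Pax5 and Ebf1 were not called: Pax5 had a log2 fold change of 0.31 ± 0.32 in succinate mice and 0.38 ± 0.34 in control mice, and Ebf1 had -0.14 ± 0.38 and 0.53 ± 0.41.

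Among the surface genes, Ly6d was higher with LPS in succinate mice. This GPI-anchored protein marks the lymphoid progenitors that turn towards B cells, and its gene lies at chr15:74762056-74763620. Ly6d had 2.14, 3.83 and 3.17 CPM with LPS in succinate mice, against 0.821, 0.991 and 1.08 CPM without, a log2 fold change of 1.65 ± 0.39 (adjusted p = 0.00501). Its level in control mice was 1.95, 1.10 and 2.75 CPM with LPS, against 1.10, 0.720 and 1.68 CPM without, groups that overlapped (0.73 ± 0.40, adjusted p = 0.195). The interaction term for Ly6d was 0.92 ± 0.56 with adjusted p = 1.0, so the 2 kinds of mice were not shown to differ. Cd72, an inhibitory co-receptor of B cells, was called in control mice, with 2.50, 1.88 and 3.20 CPM with LPS against 0.751, 1.38 and 1.12 CPM without (1.22 ± 0.33, adjusted p = 0.0106). In succinate mice it had 2.45, 3.15 and 2.90 CPM with LPS against 2.17, 1.69 and 1.31 CPM without (0.72 ± 0.31, adjusted p = 0.0957). Neither pair of groups overlapped, and the call in control mice was lost without replicate 1 of the unstimulated group (1.01, adjusted p = 0.0501). The exons of Cd72 share 1423 bases with the kinase gene Tesk1 on the other strand, whose own level was lower with LPS (14.6 and 18.3 CPM in LPS libraries of succinate and control mice, 25.7 and 25.5 CPM without LPS).

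The other 9 surface members were not called in either kind of mouse, Cr2 among them because it was too low to test. The receptor subunits that transmit the antigen signal had small LPS values: Cd79a 0.40 ± 0.29 in succinate mice and 0.36 ± 0.31 in control mice, and Cd79b -0.11 ± 0.23 and -0.21 ± 0.24. Ms4a1, the gene of CD20, had 0.522 to 1.56 CPM with LPS and 0.291 to 1.31 CPM without in succinate mice. Tnfrsf13c, the receptor for the survival factor BAFF, and Fcer2a, the low-affinity IgE receptor CD23, had positive values of 0.74 ± 0.40 and 1.57 ± 0.86 in succinate mice and 0.50 ± 0.40 and 1.21 ± 0.91 in control mice. Fcer2a rested on few reads: it was at or under 0.06 CPM in 3 of the 6 unstimulated libraries and at 0.908 to 1.80 CPM in the 6 LPS libraries. In the unstimulated control group it was at 0 and 0.060 CPM in replicates 1 and 2 and at 1.18 CPM in replicate 3. Without that last library it was called in control mice, with adjusted p = 0.00755. The inhibitory receptor Cd22, the IgM receptor Fcmr and the Fc receptor-like gene Fcrla had LPS values between -0.34 and 0.08.

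Of the signalling genes, Blnk, the adaptor that links the receptor kinase Syk to calcium signalling, was lower with LPS. It had 3.71, 3.04 and 4.25 CPM with LPS in succinate mice, against 7.51, 8.92 and 5.23 CPM without (-0.98 ± 0.26, adjusted p = 0.00929), and this call held in all 21 alternatives. The control mice had 4.02, 3.96 and 5.70 CPM of Blnk with LPS, against 5.72, 8.89 and 6.17 CPM without. These groups met at 5.70 and 5.72 CPM without overlapping, and the test missed the threshold (-0.60 ± 0.26, adjusted p = 0.0917). The Src-family kinase Blk and the scaffold Bank1 were not called, with 0.29 ± 0.39 and 0.01 ± 0.35 in succinate mice and 0.61 ± 0.43 and -0.19 ± 0.35 in control mice. Ralgps2, an exchange factor for Ral GTPases, differed little between group means, at 11.1, 10.9, 11.1 and 10.6 CPM in succinate LPS, control LPS, unstimulated succinate and unstimulated control libraries.

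**Figure D2:**
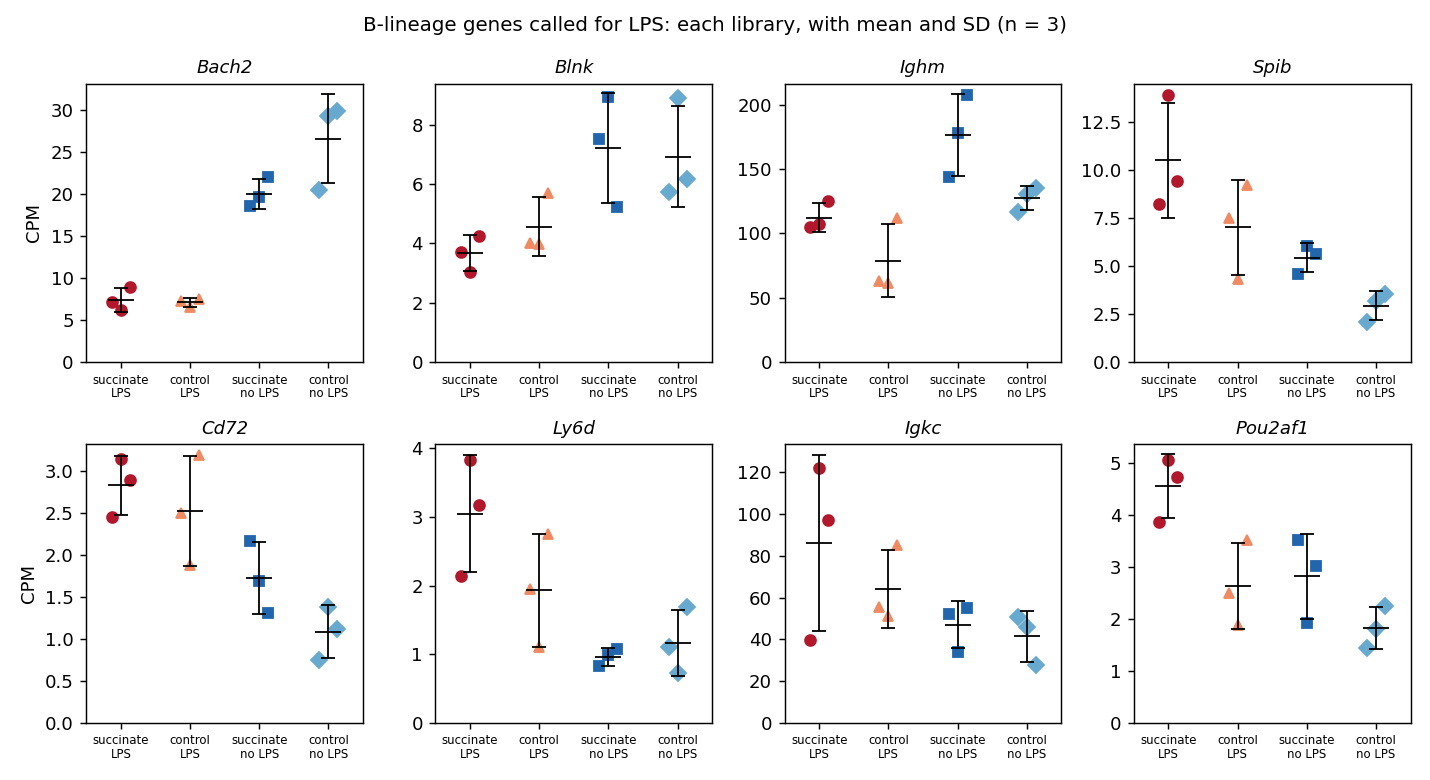
CPM of the 8 members called for LPS averaged over both kinds of mice, 1 point per library, with the mean and SD of each group of 3. Bach2 separates the LPS from the unstimulated libraries fully, and Igkc is spread most widely in the succinate LPS group (39.6 to 122 CPM).

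The immunoglobulin genes did not move as 1 block. Ighm was lower with LPS: it had 105, 107 and 125 CPM with LPS in succinate mice, against 144, 178 and 208 CPM without, and 62.8, 61.8 and 112 CPM with LPS in control mice, against 117, 131 and 135 CPM without. The groups did not overlap in either kind of mouse. Its log2 fold change was -0.65 ± 0.20 in succinate mice (adjusted p = 0.022) and -0.69 ± 0.20 in control mice (adjusted p = 0.016). Igkc had 39.6, 122 and 97.0 CPM with LPS against 52.1, 34.1 and 54.8 CPM without in succinate mice, which overlapped (0.88 ± 0.34, adjusted p = 0.0648). It had 55.5, 51.0 and 85.4 CPM with LPS against 50.6, 46.0 and 27.7 CPM without in control mice, which did not (0.63 ± 0.34, adjusted p = 0.193). On average Igkc was called as higher with LPS (0.75 ± 0.24, adjusted p = 0.0196). Ighd, Iglc1 and Iglc2 were not called.

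How far these calls depended on single libraries and on the library class differed. The Ighm call in succinate mice was lost with the class as a covariate (-0.31, adjusted p = 0.143) or in 1 class alone (-0.33, adjusted p = 0.172), and without replicate 1 or 2 of the LPS group or replicate 2 or 3 of the unstimulated group (-0.65 to -0.52, adjusted p from 0.053 to 0.0897). In control mice it was lost without replicate 1 or 2 of the LPS group or replicate 2 or 3 of the unstimulated group (-0.65 to -0.52, adjusted p from 0.0568 to 0.0986). The averaged Ighm call held in all 21 alternatives, at -0.82 to -0.45. The averaged Igkc call was lost without replicate 2 of the succinate LPS group (0.58, adjusted p = 0.0625), without replicate 2 of the unstimulated succinate group (0.66, adjusted p = 0.052) and in 1 class alone (0.43, adjusted p = 0.448). In succinate mice alone Igkc became called without replicate 1 of the LPS group (1.22, adjusted p = 0.00334).

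The ratio of Ighm to Igkc counts, not corrected for length, shows this per library. It was 2.64, 0.878 and 1.29 in LPS libraries of succinate mice, against 2.77, 5.22 and 3.80 in their unstimulated libraries. In control mice it was 1.13, 1.21 and 1.32 with LPS, against 2.31, 2.85 and 4.89 without. The groups did not overlap in either kind of mouse. This ratio was singled out after its values were seen and was not tested. The lambda constant genes were low and erratic: Iglc1 ran from 0.0578 to 4.45 CPM over the libraries, and Iglc2 shares 95.5% of 449 aligned bases with its neighbour Iglc3, so reads of that pair may be split between them.

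The heavy chains that arise by class switching are made by switched B cells and above all by plasma cells, and they varied widely between libraries of a group. None of those tested was called in any comparison. Igha, the IgA constant gene, had 151, 2101 and 1361 counts in LPS libraries of succinate mice and 706, 485 and 1190 counts in those of control mice. In unstimulated libraries it had 222, 406 and 878 counts (succinate mice) and 589, 731 and 450 counts (control mice). Switched constant genes made up 12.4% to 64.0% of heavy chain constant counts in the succinate LPS libraries, 47.6% to 54.7% in control LPS libraries, 16.9% to 25.8% in unstimulated succinate libraries and 23.1% to 35.7% in unstimulated control libraries. Ighg1 had 0 counts in 4 libraries and 137 to 526 in the other 8. Ighe was seen in 1 library only, with 40 counts in replicate 1 of the control LPS group. Replicates 2 and 3 of the succinate LPS group, which had the highest Igkc levels, also had the highest counts of Igha and of Jchain, the chain that joins IgA and IgM units (623 and 505 counts, against 90 to 326 in the other 10 libraries).

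Variable segments also differed between libraries. The count tables list 348 heavy, kappa and lambda variable segments, of which 190 had a count in some library, 6 had one in all 12 and 26 in a single library. Their summed count was 989, 2934 and 2061 in succinate LPS libraries, 1365, 821 and 991 in control LPS libraries, 1134, 549 and 941 in unstimulated succinate libraries and 997, 668 and 410 in unstimulated control libraries. The most abundant was Iglv1 with 540 counts in all and 113 of them in replicate 1 of the control LPS group. Igkv1-117 came to 443 counts, of which 197 lay in replicate 2 of the succinate LPS group and 1 each in 3 other libraries. Such close relatives share sequence, and how the authors' counting divided reads among them is not given in the sources used here.

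**Figure D3:**
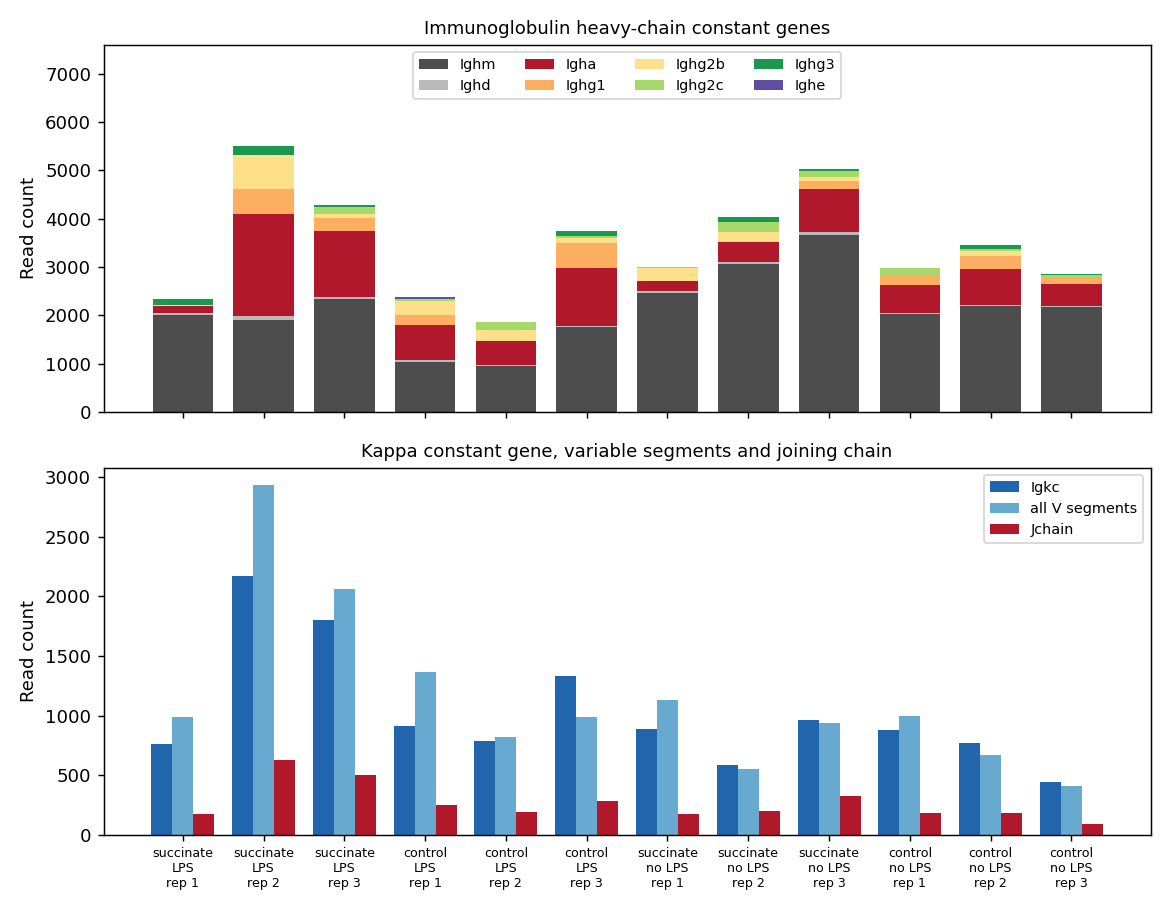
Read counts per library of the heavy chain constant genes (stacked bars, upper panel) and of Igkc, all variable segments and Jchain (lower panel). Replicate 2 of the succinate LPS group has the tallest bars for Igha (2101), variable segments (2934) and Jchain (623), while Ighm is highest in unstimulated succinate libraries.

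The recombination genes were unequal. Rag1, the catalytic subunit of the recombinase, had 4.49, 4.05 and 3.33 CPM in succinate LPS libraries, against 3.52, 2.16 and 1.53 CPM in their unstimulated libraries. It had 2.07, 1.30 and 3.01 CPM in control LPS libraries, against 1.44, 1.62 and 1.87 CPM without LPS. The LPS values (0.72 ± 0.33 in succinate mice, 0.37 ± 0.36 in control mice) were not called. Rag1 had 20 to 86 counts per library and Rag2 at most 9, which per length came to a mean of 0.383 CPM per kb for Rag1 and 0.0484 for Rag2. The surrogate light chain genes Vpreb1 and Igll1 had at most 8 and 10 counts, and their relative Vpreb2 had 0 in all 12 libraries, where each library allows up to 3 counts. Dntt, the polymerase that adds bases at the joints, had 0 to 0.935 CPM, and Vpreb3, which pairs with new immunoglobulin chains in the cell, 0.117 to 1.23 CPM. Rag1 shares 80 exonic bases on the same strand with B230118H07Rik, itself higher with LPS by 1.45 ± 0.18 on average (adjusted p = 8.45e-06).

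Succinate was compared with control within each culture condition. No member was called by edgeR's quasi-likelihood test in either. With LPS 0 of 27 were called, beside 0.0628% of all genes (9 genes, all lower). At an unadjusted p below 0.05 there were 5 members, all higher (Cd79a, Cd79b, Ighm, Pou2af1 and Rag1), where 3.55% of all genes were higher at that level. Without LPS 0 of 27 were called, beside 0.0% of all genes, and 8 members had an unadjusted p below 0.05, where 3.73% of all genes did: Blk, Cd79a, Cd79b, Ebf1, Ighd, Ighm and Spib higher (2.07% of all genes) and Bach2 lower. DESeq2 and limma-voom called 0 members in either condition. Without the low-count filter Ighm was called with LPS (0.52, adjusted p = 0.00959), as it was with the class as a covariate (0.72, adjusted p = 0.0351) and without replicate 3 of the control LPS group (0.85, adjusted p = 0.0334).

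Positive values outnumbered negative ones. With LPS 24 of the 27 tested members had a log2 fold change above 0, where 47.8% of all tested genes did, and their median was 0.48 beside -0.01. Without LPS it was 22 of 27, where 51.3% of all genes did, with a median of 0.52 beside 0.01. These genes share libraries and may share their source, so the 27 are not independent observations. The median with LPS depended on the libraries: without replicate 2 of the control LPS group it was 0.18, with 20 of 28 above 0, and in the other leave-one-out fits it was 0.33 to 0.58. Scaling by library size alone shifted the median of all genes with LPS to 0.11 and that of the members to 0.60. The members' median without LPS was 0.34 to 0.66 as single libraries were left out, the lowest without replicate 1 of the unstimulated control group. In the 7 libraries of 1 class, where each unstimulated group has 1 library, it was 1.13.

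The receptor subunits and Ighm had positive values in both conditions. Cd79b had 8.31, 8.90 and 7.26 CPM in succinate LPS libraries, against 5.12, 4.93 and 5.19 CPM in control LPS libraries, a log2 fold change of 0.68 ± 0.24 (adjusted p = 0.268). Without LPS it had 10.2, 7.93 and 8.30 CPM in succinate libraries, against 3.47, 7.08 and 7.11 CPM in control libraries (0.58 ± 0.24, adjusted p = 0.958). Neither pair of groups overlapped. Its partner Cd79a had 4.96, 8.62 and 5.37 CPM in succinate LPS libraries, against 3.11, 2.98 and 5.12 CPM in control LPS libraries, groups that overlapped (0.76 ± 0.30, adjusted p = 0.333). Unstimulated, it had 4.69, 4.90 and 4.77 CPM in succinate libraries, against 1.91, 2.94 and 3.93 CPM in control libraries, groups that did not (0.71 ± 0.30, adjusted p = 0.958). Ighm was at 0.51 ± 0.20 with LPS and 0.47 ± 0.20 without (adjusted p = 0.333 and 0.958).

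Among the factors, Pou2af1 and Spib had positive values in both conditions. Pou2af1 had 0.79 ± 0.29 with LPS (adjusted p = 0.298) and 0.62 ± 0.31 without, and its LPS groups did not overlap. For Spib the values were 0.58 ± 0.28 with LPS (adjusted p = 0.452) and 0.89 ± 0.30 without (adjusted p = 0.958). Ebf1 had 1.82, 1.57 and 2.10 CPM in unstimulated succinate libraries, against 0.809, 0.600 and 1.12 CPM in unstimulated control libraries, which did not overlap (1.11 ± 0.40, adjusted p = 0.958). Its LPS groups did overlap, with 1.46, 2.14 and 1.40 CPM in succinate libraries against 1.52, 0.584 and 1.54 CPM in control libraries. Ighd had 2.35, 3.03 and 3.75 CPM in unstimulated succinate libraries, against 0.982, 1.74 and 1.37 CPM in unstimulated control libraries (1.16 ± 0.36, adjusted p = 0.958). Rag1 had 0.89 ± 0.34 with LPS, without overlap of the groups, and 0.55 ± 0.35 without LPS. Bach2 was the only one of the 5 factors with a value below 0, at 0.06 ± 0.19 with LPS and -0.40 ± 0.17 without.

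Groups without overlap in the higher direction were seen for 3 members with LPS (Cd79b, Pou2af1 and Rag1), where 6.95% of all tested genes showed it, and for 6 without LPS (Cd79a, Cd79b, Ebf1, Ighd, Ighm and Spib), where 3.65% did. In the lower direction it was seen for 0 members, where 10.2% of all genes with LPS and 4.27% without showed it. Markers of T and NK cells, a list of 18 genes none of which was at 0 in all libraries, summed to 37.6 to 57.5 CPM in succinate LPS libraries and 24.5 to 39.6 CPM in control LPS libraries. Without LPS they summed to 25.6 to 35.8 CPM in succinate libraries and 30.9 to 34.1 CPM in control libraries. Most of this sum was Nkg7, at 17.6 to 40.5 CPM. On the measure used for the members, the 8 tested T and NK markers had a median log2 fold change of 0.54 with LPS and 0.49 without, close to the 0.48 and 0.52 of the members. The tested erythroid markers were at 0.64 and -0.07, and the Ly6C-high monocyte markers at -0.28 and -0.26. Of the other B-cell lists, the early B-lineage genes had medians of 0.14 and 0.13 and the mature B-cell genes -0.11 and -0.12. Plasma cell genes stood at 0.25 and 0.24, and the 63 tested immunoglobulin variable segments at 1.31 and 0.44. None of the genes on these lists was called for succinate. The 10 erythroid markers summed to 29.3 to 88.4 CPM in succinate LPS libraries, 26.5 to 55.4 CPM in control LPS libraries, 9.44 to 36.6 CPM in unstimulated succinate libraries and 7.14 to 40.6 CPM in unstimulated control libraries. Car2 weighs on this sum: it averaged 27.8 and 18.7 CPM in LPS libraries of succinate and control mice, and 4.66 and 3.08 CPM without LPS. The part of the cells that these lists mark in the B-lineage values was not tested.

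**Figure D4:**
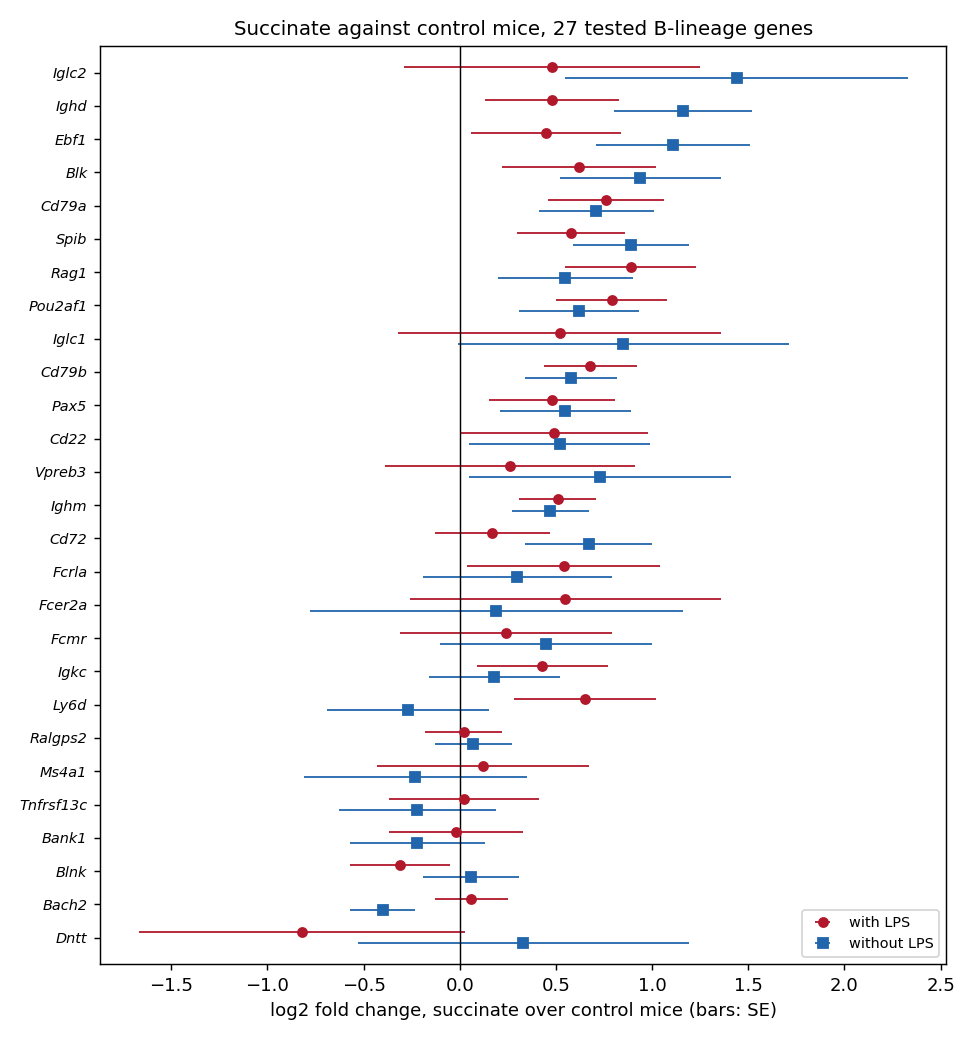
Log2 fold change of succinate over control mice for the 27 tested members, with LPS (circles) and without (squares), and bars for the SE. Most points lie right of 0, those of Bach2, Blnk, Bank1, Dntt, Ly6d, Ms4a1 and Tnfrsf13c lie left of it in at least 1 condition, and no member passed the adjusted threshold.

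Averaged over both culture conditions, 0 of 14324 genes (0.0%) and 0 members were called between succinate and control mice with edgeR's quasi-likelihood test, while 10 members had an unadjusted p below 0.05. All 10 were higher, where 5.01% of all genes were. They were Blk, Cd79a, Cd79b, Ebf1, Ighd, Ighm, Pax5, Pou2af1, Rag1 and Spib. The log2 fold change was 0.63 ± 0.17 for Cd79b (adjusted p = 0.152), 0.73 ± 0.21 for Spib (adjusted p = 0.175), 0.73 ± 0.21 for Cd79a (adjusted p = 0.19) and 0.49 ± 0.14 for Ighm (adjusted p = 0.189). DESeq2 called these 4, with adjusted p from 0.0275 to 0.047 and 2.09% of all genes called. Without the low-count filter edgeR called the same 4 and Ighd, with 2.48% of all 28563 genes called, while limma-voom called 0. The tools thus differed on whether these members pass. Ighm alone was called with the class as a covariate (0.58, adjusted p = 0.0414) and without replicate 3 of the control LPS group (0.65, adjusted p = 0.0221).

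The interaction term asked whether the LPS response of a member differed between the 2 kinds of mice. With it, 0 members and 0 of 14324 genes were called (0.0%) with edgeR's quasi-likelihood test, and 0 members had an unadjusted p below 0.05, where 3.91% of all genes did. DESeq2 and limma-voom also called 0 members. The members with the smallest p were Bach2 (0.47 ± 0.25) and Ly6d (0.92 ± 0.56), both with adjusted p = 1.0. With 3 libraries a group a p above the threshold does not show that the responses were alike.

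Genes beyond the 31 that belong to B-cell life were also counted. Of 15 tested genes from a list of mature B-cell genes, of which dendritic cells are known to use Cd40 and Ccr7 too, 9 rose and 2 fell with LPS in succinate mice, and 8 rose and 1 fell in control mice, where 14.1% and 16.2% of all genes rose and fell in succinate mice and 15.3% and 14.8% in control mice. The median of the list was 1.32 in succinate mice and 1.09 in control mice. Cd40, the co-stimulatory receptor, averaged 85.2 ± 25.0 CPM with LPS and 3.60 ± 0.707 CPM without in succinate mice, and 116 ± 21.9 CPM and 3.44 ± 0.838 CPM in control mice (SD, n = 3 each). Its log2 fold change was 4.56 ± 0.26 in succinate mice and 5.07 ± 0.27 in control mice. Pou2f2, the octamer factor that Pou2af1 binds, rose by 2.57 ± 0.23 in succinate mice and 2.89 ± 0.24 in control mice, and Siglecg, an inhibitory lectin, by 2.05 ± 0.21 and 2.38 ± 0.21. The chemokine receptor Ccr7 rose by 2.93 ± 0.33 in succinate mice and 3.73 ± 0.35 in control mice.

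Of 15 tested genes from a list of early B-lineage genes, beside the same shares of all genes, 1 rose (Bcl11a) and 1 fell (Il7r) with LPS in succinate mice, and 1 rose (Bcl11a) and 0 fell in control mice. The median was -0.01 and 0.15, and the difference between the mature and the early list was not tested. Il7r, the interleukin 7 receptor chain of early lymphoid cells, was also at -0.88 ± 0.15 for succinate on average, just short of a call (adjusted p = 0.0692). Among 11 tested plasma cell genes, beside the same shares of all genes, the transcription factors Irf4 and Prdm1 rose with LPS in both kinds of mice. The proteoglycan gene Sdc1 fell in both. Sdc1 had 17.2, 19.7 and 41.8 CPM with LPS against 135, 115 and 132 CPM without in succinate mice (-2.28 ± 0.25, adjusted p = 6.84e-06), and 46.7, 42.5 and 59.6 CPM with LPS against 170, 188 and 165 CPM without in control mice (-1.81 ± 0.25, adjusted p = 4.69e-05). Tnfrsf17, a receptor of plasma cells, was at 0 in 10 of 12 libraries and at no more than 0.114 CPM in the others. Group means of Il7r (64.7 to 188 CPM), Prdm1 (63.9 to 134 CPM) and Pou2f2 (28.3 to 210 CPM) lay far above those of Cd79a (2.93 to 6.32 CPM). Those of Irf4 were lower, at 3.90 to 14.2 CPM. Which cells made these transcripts was not tested.

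Spib and Ly6d, higher with LPS, are also genes of plasmacytoid dendritic cells. Of 9 tested genes on a list of 11 markers of those cells, which includes Spib and Ly6d, 3 rose and 2 fell with LPS in succinate mice (14.1% and 16.2% of all genes), 4 rose and 2 fell in control mice (15.3% and 14.8%), and 6 rose and 2 fell on average (21.2% and 22.9%). Their median log2 fold change was 0.61 in succinate mice, 0.63 in control mice and 0.61 on average. The 3 that rose in succinate mice were Spib, Ly6d and Siglech, and Spib was among the 4 in control mice. Both Spib and Ly6d were among the 6 on average, so these counts and medians are not independent of them. The list summed to 98.5 to 123 CPM in succinate LPS libraries, 103 to 132 CPM in control LPS libraries, 113 to 147 CPM in unstimulated succinate libraries and 117 to 133 CPM in unstimulated control libraries. Runx2, a factor that other cells use too, fell with LPS and weighs on this sum, at 32.0 to 39.2 CPM and 42.6 to 50.4 CPM in LPS libraries of succinate and control mice, against 66.3 to 98.7 CPM and 77.0 to 84.3 CPM without LPS. Siglech, a surface lectin that defines these cells, had 0.973 to 3.33 CPM with LPS and 0.350 to 1.19 CPM without, and was called over both kinds of mice (1.05 ± 0.36, adjusted p = 0.0281). It was called in succinate mice (1.59 ± 0.51, adjusted p = 0.0272) and not in control mice (0.52 ± 0.52, adjusted p = 0.503). Pacsin1, another marker of low level, fell with LPS in both. It was at -1.23 ± 0.42 in succinate mice (adjusted p = 0.0405) and -2.03 ± 0.44 in control mice (adjusted p = 0.00229). The markers Klk1 and Cd209d were at no more than 0.235 and 0.122 CPM in any library. The part of such cells in the Spib and Ly6d values was not tested.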

How the data were processed

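Counts per gene were taken as deposited: the authors deposited 1 table of raw whole-number counts for each of the 12 libraries, all with the same 54532 genes. Per the labels, Trizol was used to extract the RNA and a company made the libraries. Trim Galore and the mm10 build are named per the submitters' processing notes. Aligner, counting tool, annotation and strand setting: not given in the sources used here.

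Groups came from the sample titles. Testing used edgeR 4.0.16 in R 4.3.3. After filterByExpr (14324 genes kept) and TMM scaling, a quasi-likelihood fit over the 12 libraries gave each group its own mean, with Benjamini-Hochberg adjustment over the tested genes. The 7 contrasts were LPS within each kind of mouse, succinate within each culture condition, the average of each, and the interaction. Exon lengths and coordinates came from GENCODE M21 (GRCm38), which holds 54495 of the identifiers, and promoters from RefSeq (GRCm38.p6). The fit was tested on simulated counts that had the same spread for every gene. For succinate with LPS it recovered 20.9% of 1.5-fold changes, 67.2% of 2-fold changes and 95.5% of 4-fold changes. The changed genes were drawn from all tested genes, not from the members in particular. Spread differed among members: the SD of log2 CPM within groups (0.5 CPM added) ran from 0.151 for Bank1 to 1.14 for Iglc1. The recovered shares need not hold for them.

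The members and the gene lists beside them were chosen with earlier results of these data known. All 31 members are named. Of each other list the called genes with the smallest p (up to 4 per contrast) could be named, and of the variable segments the 4 with the largest counts. Tnfrsf17, Siglech, Klk1, Cd209d, Igha, Ighg1, Ighe and Vpreb2 are named beyond that rule, after their values were seen.

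The library class is the mean log2 CPM of 5 genes (S100a4, Rpl24, Rpl10-ps3, Gm14303 and Rpl35a-ps2), which was 3.186 to 4.032 in 5 libraries and 0.816 to 1.455 in the other 7. Alternatives were a filter of 1 CPM or more in 6 libraries or more, dropping the filter, scaling by relative log expression or by library size alone, DESeq2 1.42.0, limma-voom (limma 3.58.1), the replicate number as a block, the library class as a covariate, 1 class alone (chosen after seeing the data), and leaving out each library. Each of the 3 same-number correlations was above 0.1 for the 2 unstimulated groups (0.26, 0.116 and 0.198) and for no other pair of groups. The block changed no count of called members. Libraries of a group differed by more than sampling noise (chi-square per degree of freedom 6.42 to 38.72).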

Additional observations from a re-analysis of the deposited data

How the results depend on the processing

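Of 21 alternatives for each of the 7 comparisons, most left the count of called members within 1.5 times its value. For LPS in succinate mice, with 5 members called, 1 library class alone gave 2, and leaving out single libraries gave 3 to 5 (3 without replicate 2 of the succinate LPS group). For LPS in control mice leaving out single libraries gave 3 to 5, and for LPS averaged over both kinds of mice 6 to 11. For succinate with LPS, with 0 called, no filter gave 1, the class covariate gave 1 and leaving out single libraries gave 0 to 1 (Ighm without replicate 3 of the control LPS group). For succinate averaged over both conditions, with 0 called, no filter gave 5, DESeq2 gave 4, the class covariate gave 1 and leaving out single libraries gave 0 to 1. Succinate without LPS and the interaction had 0 called members in every alternative run. The fit with the replicate block gave 5 and 4 called members for LPS in succinate and in control mice, 8 on average, and 0 in each succinate comparison and the interaction, so pairing by number changed no count of members, while over all genes it gave 77 calls in place of 9 for succinate with LPS. The averaged LPS value of Iglc1, 0.21, turned negative without replicate 1 of the control LPS group (-0.28), of the unstimulated succinate group (-0.01) and of the unstimulated control group (-0.07), within a leave-one-out range of -0.28 to 0.83. Of the single-gene values 724 kept their side of the threshold, 38 passed it newly, 27 no longer passed it and 3 turned. The cause of these changes was not tested. The precision of the low members is limited by depth, with 3 counts worth 0.157 to 0.195 CPM.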

Other observations

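Genes of B-cell receptor signalling that myeloid cells share with B cells, such as the kinases Syk, Btk and Lyn, were far more abundant than the members and summed to 5020 to 7860 CPM per library. Of 19 tested genes 7 rose and 4 fell with LPS in succinate mice, and 7 rose and 3 fell in control mice. Over all genes 14.1% rose and 16.2% fell in succinate mice, and 15.3% and 14.8% in control mice. Segments of the T-cell receptor were almost silent: of 170 listed, 136 had no count in any library, and the others summed to 0.12 to 1.67 CPM, while immunoglobulin variable segments summed to 25.6 to 165 CPM.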
